A study of Mus musculus with 14 samples.

Results

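The effect of losing Thap1 was measured across the transcriptome of the mouse striatum. The members were the 6 striatal RNA sequencing libraries among the 14 of the series, 3 from wildtype (WT) mice and 3 from Thap1 conditional knockout (cKO) mice. All came from microdissected, flash-frozen tissue of mice on a C57Bl/6 background at 6 months of age, and the series describes the WT mice as littermates. The other 8 libraries, 4 WT and 4 cKO, came from the cerebellum of mice of that age and background, and are used here only for comparison. The Cre driver, the cells in which Thap1 was removed, the deleted exons and the sex of the mice are given in none of the sources used. Nor do those sources say that each replicate was a separate animal, so the p-values below measure the spread between these libraries.

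THAP1 is a DNA-binding protein with a THAP-type zinc finger, and mutations in its gene cause the movement disorder DYT6 dystonia. It acts at promoters, where it is known to work with the cofactor HCF-1, the O-GlcNAc transferase OGT and the zinc finger protein YY1, and it is needed for oligodendrocytes to mature on time. The striatum is the input station of the basal ganglia. Most of its neurons are inhibitory projection neurons of the direct and the indirect pathway, joined by a few classes of interneurons and crossed by myelinated fibre bundles.

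The striatal libraries held 12595941 to 14258141 counts and 16477 to 16832 detected genes. Striatal projection neuron genes identified the tissue, with summed levels of 24660, 24430 and 24450 CPM (counts scaled to a common library size) in WT and 21100, 25250 and 24380 CPM in cKO. Levels are always given in the order of replicates 1, 2 and 3. WT replicate 1 stood apart. Its counts differed from WT replicates 2 and 3 with chi-square statistics of 27.2 and 26.9 per degree of freedom, against 6.52 between those 2. It alone lay far out on the first principal component, which held 49.1% of the variance. The deviation followed transcript length. Genes were ordered by the length of their annotated exons and divided into 5 groups of like size. In the shortest (67 to 2591 bases) WT replicate 1 lay a median of 0.45 log2 units below the other libraries, and in the longest (7797 to 123179 bases) 0.25 above them. Across 13947 genes its deviation had a Spearman correlation of 0.557 with exon length, against −0.310 to −0.227 in the other 5 libraries. This is a correlation across genes of 1 library, and genes are not independent replicates. The genotype comparison carried the trend: the median log2 fold change of cKO against WT ran from 0.15 in the shortest group to −0.09 in the longest with all 6 libraries, and was 0.0127 and −0.00277 in those groups without WT replicate 1. WT replicate 1 and cKO replicate 1 were also the male libraries by Xist and Y-linked counts, so leaving out WT replicate 1 alone leaves the sexes unequal. Results are therefore given with all 6 libraries and without WT replicate 1. Where the call turns on it, they are also given without replicate 1 of both genotypes, or with each library's length trend removed.

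**Figure D1:**
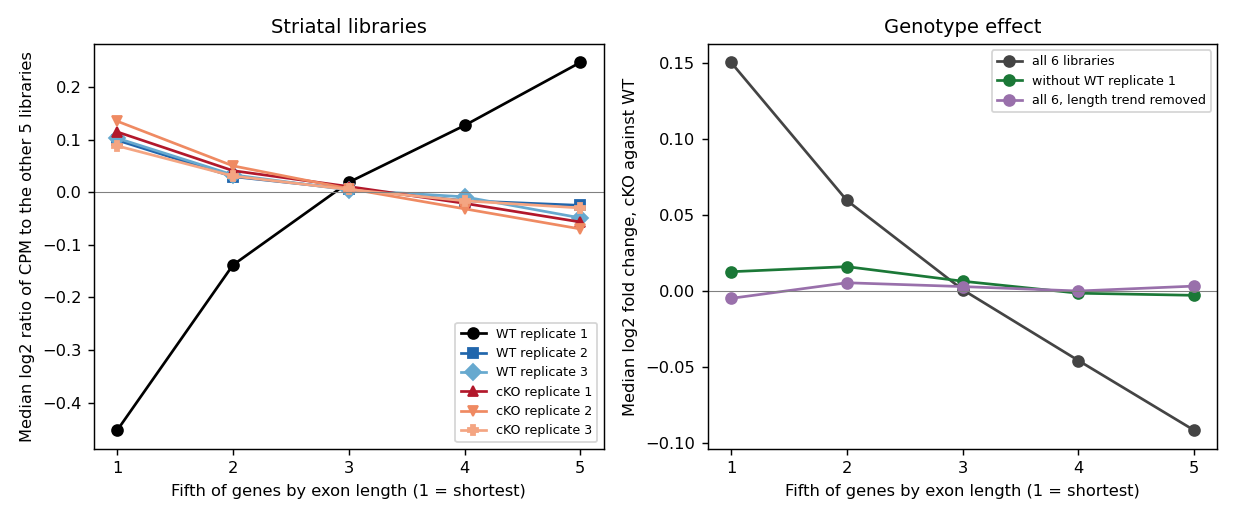
Left, median log2 ratio of each striatal library to the other 5 (y axis) in 5 groups of genes by exon length (x axis); right, median log2 fold change of cKO against WT in the same groups under 3 treatments of the data. WT replicate 1 climbs from −0.45 to 0.25 while the other 5 libraries slope gently the other way, and the genotype effect, which slopes from 0.15 to −0.09 with all 6 libraries, runs along 0 in both other treatments.

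Most genes called in the striatum were lower in cKO. Genes were called where edgeR's quasi-likelihood test gave a p under 0.05 after adjustment over all tested genes by the Benjamini-Hochberg method. With all 6 libraries 54 of 14080 tested genes (0.384%) were called, 9 higher and 45 lower, as were 122 of 14252 (0.856%) without WT replicate 1, 27 higher and 95 lower. The spread between libraries, as a common biological coefficient of variation, was 0.136 with WT replicate 1 and 0.0832 without it, and the median standard error (SE) of a log2 fold change was 0.141 and 0.112. Of the 54 genes 53 were called in both fits. The exception was Bcas1, an oligodendrocyte protein, with an adjusted p of 0.0494 with all libraries and 0.0628 without WT replicate 1. Another 69 genes were called without WT replicate 1 only, and all 123 genes called in either fit kept 1 direction in both. Across the 6 libraries the genotypes did not overlap in all of the 54 genes and in 116 of the 122. A lack of overlap in a called gene is therefore no further evidence. Without replicate 1 of both genotypes, which leaves 2 female libraries per group, 61 genes were called, 44 of them among the 54. With the length trend removed from all 6 libraries 86 genes were called, 52 of them among the 54. The count depended on the other libraries too: it was 47 without WT replicate 2, 12 without WT replicate 3, 3 without cKO replicate 1, 12 without cKO replicate 2 and 3 without cKO replicate 3. The fit without WT replicate 1 called 131, 41, 61, 196 and 45 genes when each of those libraries was left out as well. The first 2 of these leave 1 WT library, which is assumed to vary like the cKO libraries. An unadjusted p under 0.05 was reached by 1020 genes with all libraries and by 1210 without WT replicate 1.

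**Figure D2:**
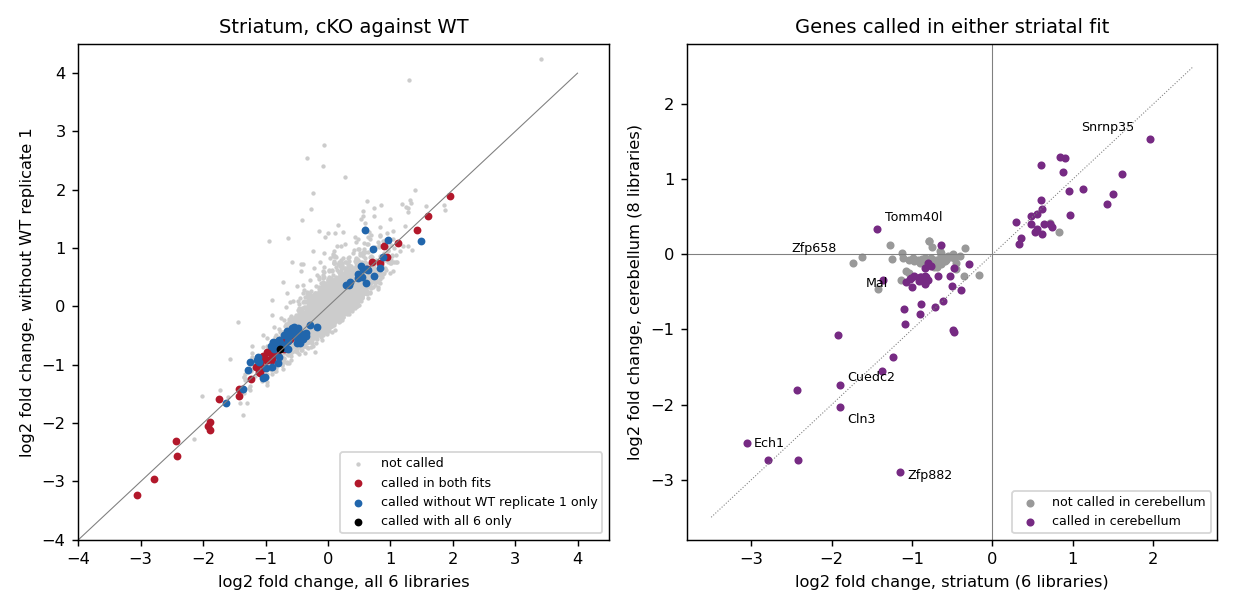
Left, log2 fold change of cKO against WT with all 6 striatal libraries (x axis) and without WT replicate 1 (y axis) for every tested gene, with called genes in colour and the line of equal values; right, for the genes called in either striatal fit, the log2 fold change in striatum (x axis) and cerebellum (y axis). All called genes keep their direction on the left, and on the right Tomm40l is among the few that lie in the quadrant of opposite directions.

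Thap1 itself was measured first. It stood at 13.2, 14.5 and 15.3 CPM in the WT libraries and 5.25, 7.65 and 3.77 CPM in the cKO libraries. The genotypes did not overlap, and cKO replicate 2 kept the most transcript. Its log2 fold change was −1.36 (adjusted p = 0.0562, SE 0.231) with all libraries and −1.42 (adjusted p = 0.0248, SE 0.230) without WT replicate 1. Counts per gene do not show in which exons the remaining reads lie. Of the 14 measured genes of the THAP family and their partners, Thap1 was the only member called in either fit. Ogt had a log2 fold change of −0.19 and Thap3 of 0.35, and neither passed.

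The largest decreases were in genes with unrelated functions. Ech1, an auxiliary isomerase of fatty acid oxidation (chromosome 7, 28825217 to 28832247, mm10), stood at 28.7, 43.6 and 44.4 CPM in WT and 4.63, 5.23 and 4.16 CPM in cKO. The lowest WT value was that of WT replicate 1, and it was still several times every cKO value. Its log2 fold change was −3.06 (adjusted p = 0.000679, SE 0.200), and −3.23 (adjusted p = 4.46e-07, SE 0.115) without WT replicate 1. Cradd, the adaptor that joins caspase-2 to its activating complex, stood at 5.38, 7.93 and 8.30 CPM in WT and 0.886, 1.06 and 1.18 CPM in cKO (log2 fold change −2.79, adjusted p = 0.00494, SE 0.262). Shld1, listed under its earlier symbol 1110034G24Rik and a subunit of the shieldin complex of double-strand break repair, stood at 6.35, 8.97 and 8.54 CPM in WT and 1.36, 1.82 and 1.26 CPM in cKO (log2 fold change −2.42, adjusted p = 0.00527, SE 0.237). Cuedc2, a ubiquitin-binding CUE domain protein with a short transcript, stood at 46.4, 78.98 and 82.7 CPM in WT and 17.4, 19.1 and 19.4 CPM in cKO. WT replicate 1 was low among the WT libraries. Leaving it out moved the log2 fold change from −1.90 (adjusted p = 0.00823, SE 0.206) to −2.11 (adjusted p = 5.79e-07, SE 0.0823). The unnamed transcript 9130019O22Rik and the zinc finger gene Zfp764, close neighbours on chromosome 7, had log2 fold changes of −2.43 and −1.93.

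The promoters of the genes just named shared a pair of short words. It was found for neither Cln3 nor Zfp658, whose decreases were of like size (log2 fold changes −1.90 and −1.74). Promoter windows, 250 bases before to 50 after a RefSeq transcript start on GRCm38.p6, were matched to 11103 of the 14080 tested genes and read on both strands. The core of the known THAP1 site, written TNNGGGCA, was in 16.4% of them, in 36.1% of the 36 called lower genes with a window and in 44.4% of the 9 called higher. A YY1 site, AANATGGCG, was in 5.44%, 22.2% and 33.3% of the same sets. Reading the windows of the called genes showed both words at a fixed distance: GCCC, 6 bases, and AANATGGC. This pattern, GCCCNNNNNNAANATGGC, was written down after the calls of both tissues were known, overlaps both sites above, and is a description of these genes with no test. It was found in 88 of the 11103 genes (0.793%), and in 11 of the 45 genes called with all 6 libraries that had a window (24.4%), 7 lower and 4 higher. The stretches below, chosen because they carry the pair in genes called lower or higher, are printed from the strand that carries the words, with the words in capitals.

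Ech1, upstream copy, lower, chr7:28825202-28825231, plus strand: tcgtttGCCCttagtaAAGATGGCgaacta
Ech1, copy nearer the start, lower, chr7:28825271-28825300, plus strand: ttcggtGCCCttgaccAACATGGCgaacgt
Cradd, lower, chr10:95324153-95324182, minus strand: tcttgcGCCCtcaacaAAGATGGCtacagc
Shld1, lower, chr2:132686829-132686858, plus strand: gcaaatGCCCtcagttAAGATGGCcgcagc
Cuedc2, lower, chr19:46338687-46338716, minus strand: caaagcGCCCttctcaAAAATGGCcaccac
9130019O22Rik, lower, chr7:127387212-127387241, plus strand: cttcatGCCCtcatcaAAAATGGCcacaga
Zfp764, lower, chr7:127406876-127406905, plus strand: cttccaGCCCtcatcaAAAATGGCcacaga
Aars2, higher, chr17:45506835-45506864, plus strand: gccgttGCCCggagctAAGATGGCggtggc
Cyb5d2, higher, chr11:72796020-72796049, plus strand: ttatccGCCCtcaacaAAGATGGCggcaga
Racgap1, higher, chr15:99651766-99651795, minus strand: gtgtgtGCCCttagtcAAAATGGCcgcctt
Imp4, higher, chr1:34439777-34439806, minus strand: cagagtGCCCcatcttAAGATGGCgaatgg

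Both words stood 6 bases apart far more often than at any other distance. At spacings of 0 to 5 and 7 to 20 bases the pair was in 3 to 20 promoters, and at 6 bases in 88. Of those 88 genes 12.5% were called with all 6 striatal libraries, 4 higher and 7 lower, against 0.405% of all genes with a window. Without WT replicate 1 18.2% were called, 7 higher and 9 lower, against 0.829%, and in cerebellum 51.1%, 23 higher and 22 lower, against 7.46%. AANATGGC without GCCC at that distance was in 945 genes, of which 0.529% were called with all 6 libraries. GCCC at any place in a window was in 97.9% of all genes with a window. None of the 11 genes with a window that were called in the striatum but not in the cerebellum held the pair. Nor did any of 21 myelin genes with a window. At a share of 0.793% over all genes with a window, sets this small would mostly hold none, so neither set is told apart from all genes. The stretches of 9130019O22Rik and Zfp764 are alike over most of their length, and are no independent examples. A match is not evidence of binding, and windows without the words say nothing about the factors.

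**Figure D3:**
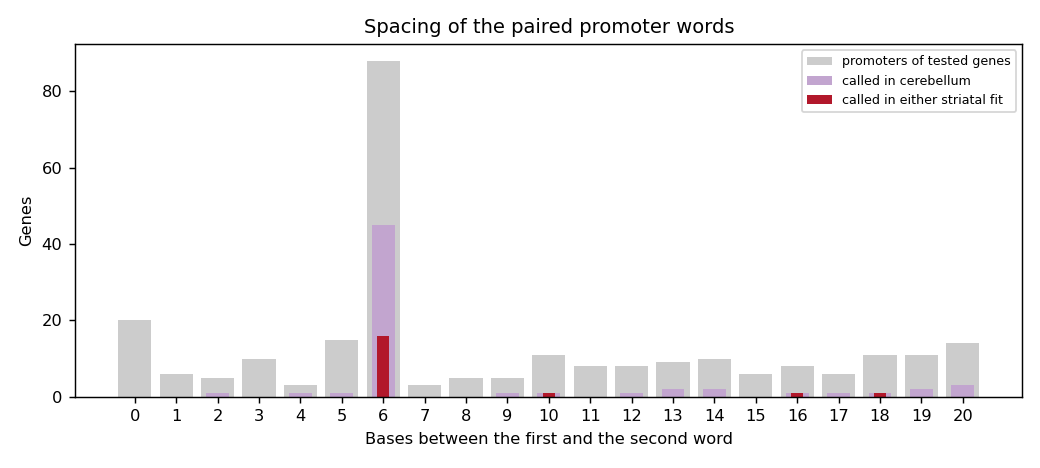
Number of genes (y axis) whose promoter window holds GCCC and AANATGGC on the same strand at each distance (x axis, bases between the words). Grey bars count all tested genes with a window, purple bars those called in cerebellum and red bars those called in either striatal fit, with the peak of 88 genes at 6 bases.

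Genes that act on RNA and in translation changed singly, mostly upward. Snrnp35, a protein of the U11/U12 particle of the minor spliceosome (chromosome 5, 124483134 to 124491124), stood at 5.70, 6.52 and 7.03 CPM in WT and 25, 24.9 and 25.2 CPM in cKO. The cKO libraries lay within 1 CPM of each other and far above WT. Its log2 fold change was 1.96 (adjusted p = 0.000679, SE 0.129), and 1.89 without WT replicate 1. It was the 1 called gene of 9 tested minor spliceosome genes, and none of 40 major spliceosome genes was called in either fit. Imp4, which processes ribosomal RNA with the U3 particle, stood at 23.2, 22.4 and 21.8 CPM in WT and 35.2, 35.9 and 32.6 CPM in cKO (log2 fold change 0.62, adjusted p = 0.0437, SE 0.0988), alone among 42 ribosome biogenesis genes. Mettl3, the catalytic subunit of the m6A methyltransferase, went the other way, at 30.4, 33.7 and 28.8 CPM in WT and 19.1, 13.9 and 16.6 CPM in cKO (log2 fold change −0.90, adjusted p = 0.0429, SE 0.138). Atpbd4, now named Dph6 and an enzyme of diphthamide synthesis, fell by 1.38 on the log2 scale as the 1 called gene of 8 in its pathway. Among 20 cytosolic aminoacyl-tRNA synthetases, Nars, which charges the asparagine tRNA, rose without WT replicate 1 (log2 fold change 0.49, adjusted p = 0.00993, SE 0.0716). With all libraries its change was 0.47 (adjusted p = 0.0606, SE 0.0821). None of 55 translation initiation factors was called in either fit.

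Mitochondrial genes held called members in both directions. Aars2, the mitochondrial tRNA synthetase for alanine, mutated in a human white matter disease, stood at 20.9, 20.9 and 24.8 CPM in WT and 48.2, 46.5 and 50.5 CPM in cKO (log2 fold change 1.12, adjusted p = 0.00527, SE 0.108). The genotypes did not overlap. Dnlz, which keeps mitochondrial Hsp70 soluble, stood at 31.7, 41.3 and 37.7 CPM in WT and 68.2, 73.7 and 72.1 CPM in cKO, and rose by 0.95 on the log2 scale. Tomm40l, a relative of the protein import pore Tom40 (chromosome 1, 171216011 to 171222514), stood at 51.6, 67.6 and 64.5 CPM in WT and 21.5, 24.7 and 21.9 CPM in cKO (log2 fold change −1.43, adjusted p = 0.00391, SE 0.128). Its own exons overlap those of Nr1i3 on the other strand over 64.3% of their length, and the strand setting of the counting is not given, so its value is uncertain. Fam73a, an earlier symbol of the mitochondrial fusion protein Miga1, fell by 0.61 on the log2 scale. Mrpl36, of the mitochondrial ribosome, rose without WT replicate 1 (log2 fold change 0.52, adjusted p = 0.0447, SE 0.0993). Ech1 was the 1 called gene of 27 fatty acid oxidation genes.

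Whole mitochondrial and ribosomal lists moved with WT replicate 1, gene by gene below the call threshold. None of the 36 genes of respiratory complex I and 41 of complexes II to V was called in either fit. Their median log2 fold changes were 0.35 and 0.35 with all libraries and 0.07 and 0.08 without WT replicate 1. Higher without overlap across the 6 libraries were 8 (22.2%) and 13 (31.7%) of them, against 6.85% of all genes, and 0 and 0 were lower. In WT replicate 1 these genes lay a median of −1.26 and −0.95 log2 units from the mean of WT replicates 2 and 3. The transcripts were short, with median exon lengths of 1532 and 1675 bases against 4571 over all tested genes. Cytosolic ribosomal protein genes turned direction, from a median of 0.22 to −0.06, and were at −0.12 without replicate 1 of both genotypes. Mitochondrial ribosomal proteins went from 0.20 to 0.02 and proteasome genes from 0.19 to 0.05, with Mrpl36 the only call among the 3 lists in either fit. Over all tested genes the medians were 0.00 and 0.01. With the length trend removed complex I kept a median of 0.19 and complexes II to V of 0.22. In WT libraries 2 and 3 alone the summed levels of complexes II to V were 6087 and 6043 CPM against 6293, 6908 and 6234 CPM in cKO. All 3 cKO sums lay above both WT sums, those of replicates 1 and 3 by little.

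Lysosomal and endosomal genes held single strong decreases. Cln3, the gene of juvenile Batten disease, which encodes a protein of the lysosomal membrane, stood at 11.6, 14 and 13.8 CPM in WT and 3.54, 3.86 and 3.14 CPM in cKO (log2 fold change −1.90, adjusted p = 0.00391, SE 0.166). Gusb, the lysosomal beta-glucuronidase, stood at 12.7, 10.8 and 15.01 CPM in WT and 5.59, 5.23 and 5.49 CPM in cKO (log2 fold change −1.24, adjusted p = 0.0251, SE 0.166). Neither overlapped between genotypes. They were the single calls among 20 lysosomal membrane genes (median −0.04) and 34 hydrolases (median 0.05). Ehd3, an ATPase of endosomal recycling, stood at 74.4, 65.4 and 88.1 CPM in WT and 36.1, 34.8 and 35 CPM in cKO (log2 fold change −1.11, adjusted p = 0.00823, SE 0.120). It was the 1 call of 56 Rab GTPase and EHD genes. Pik3c3, the class III lipid kinase of autophagy and endosomes, and Uvrag, a subunit of its endosomal complex, both rose without WT replicate 1, by 0.36 (adjusted p = 0.0344) and 0.42 (adjusted p = 0.0345) on the log2 scale. With all libraries their adjusted p were 0.204 and 0.324. Lrsam1, a ubiquitin ligase that acts in endosomal sorting, rose by 0.71, and Tmed10, a cargo receptor between endoplasmic reticulum and Golgi, fell by 0.53 on the log2 scale. Of 16 vacuolar ATPase genes and 46 proteasome genes none was called in either fit.

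Ppp2r3c, Fam117a and Cyb5d2 rose, each in every cKO library. Ppp2r3c, which encodes a regulatory subunit of the phosphatase PP2A, stood at 8.80, 10.5 and 9.74 CPM in WT and 28.3, 31.9 and 28.3 CPM in cKO (log2 fold change 1.61, adjusted p = 0.00182, SE 0.124), and the other 16 tested subunits were not called in either fit. Its neighbour on the opposite strand, 1110008L16Rik, overlaps its exons over 4.1% of their length and rose without WT replicate 1 (log2 fold change 0.85, adjusted p = 0.0456, SE 0.165). Whichever single library was left out, 3 genes stayed called: Snrnp35, Ppp2r3c and Ech1. Fam117a stood at 11.7, 17.2 and 12.5 CPM in WT and 40.5, 38.2 and 32.2 CPM in cKO. Cyb5d2, a haem-binding protein, stood at 18.2, 15.04 and 13.2 CPM in WT and 29.2, 29.02 and 28.5 CPM in cKO. Both rose, by 1.42 and 0.90 on the log2 scale. Prepl, a prolyl endopeptidase-like enzyme with high levels in neurons, stood at 465, 398 and 392 CPM in WT and 251, 259 and 255 CPM in cKO and fell by 0.71.

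**Figure D4:**
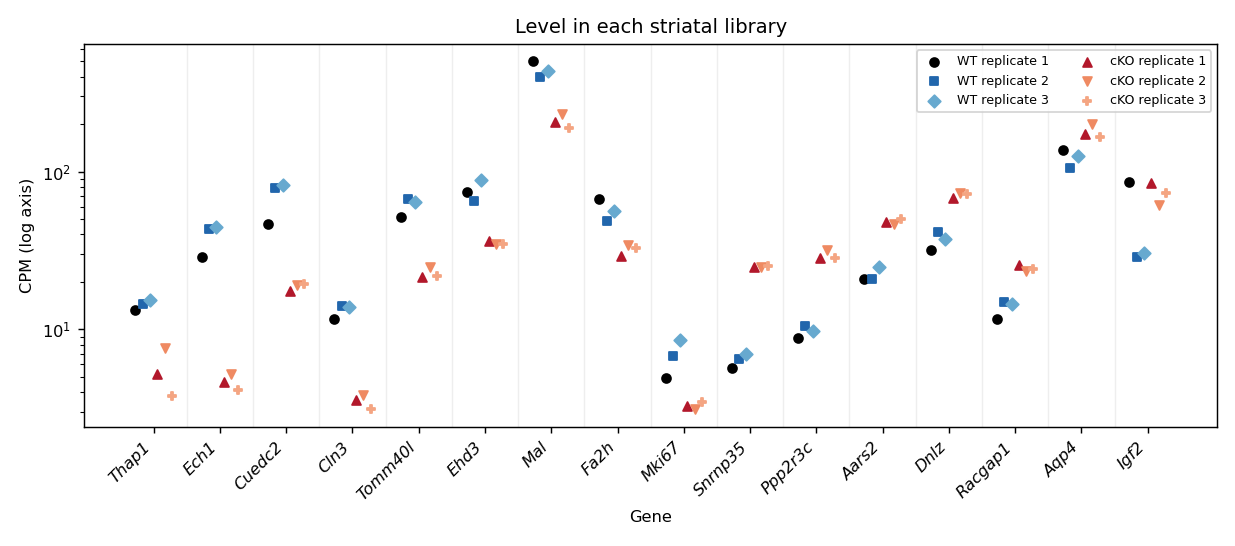
Level of 16 genes in each of the 6 striatal libraries (y axis, CPM on a log axis; each point is 1 library, black circles are WT replicate 1). The genotypes are apart for every gene shown except Igf2, where WT replicate 1 lies with the cKO libraries. For genes called with all 6 libraries this adds nothing to the call, since all 54 were without overlap.

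Of the zinc finger genes named Zfp, which are mostly transcriptional repressors, few were called. Among 358 tested members 3 were called lower and none higher with all libraries. Zfp658 stood at 10.02, 7.26 and 7.98 CPM in WT and 2.45, 2.35 and 2.75 CPM in cKO (log2 fold change −1.74, adjusted p = 0.0110, SE 0.199). Zfp882 stood at 29.7, 24.5 and 23.4 CPM in WT and 9.33, 11.97 and 13.6 CPM in cKO (log2 fold change −1.15, adjusted p = 0.0335, SE 0.165), and Zfp764 is described above. In all 3 the genotypes did not overlap. Zfp597 rose without WT replicate 1 (log2 fold change 0.55, adjusted p = 0.0102, SE 0.0818). In 60 members every cKO library was below every WT library, and in 10 above, that is 16.8% and 2.79% of the list. Over all 14080 tested genes the shares were 8.2% and 6.85%. The median of the list was −0.07 with all libraries and −0.03 without WT replicate 1. Zeb2, a repressor needed for oligodendrocyte differentiation, stood at 118, 96.7 and 97.2 CPM in WT and 68, 66.7 and 65.2 CPM in cKO and fell by 0.64 on the log2 scale (adjusted p = 0.0431). No histone, Mediator, RNA polymerase II or immediate early gene was called in either fit.

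Myelin genes were the list with the most called members, and all of its 29 members had negative log2 fold changes in both fits. Of these, 8 were called lower with all libraries and 12 without WT replicate 1, where 0.384% and 0.856% of all tested genes were called. The median log2 fold change was −0.68 and −0.62. It was −0.79 with the length trend removed and −0.58 without replicate 1 of both genotypes. In 24 of the 29 every cKO library was below every WT library (82.8%, against the 8.2% of all genes). The groups overlapped in Klk6, Opalin, Pllp, Ppp1r14a and Tmem125. The summed level of the list was 11090, 9016 and 10120 CPM in WT and 5866, 7178 and 5812 CPM in cKO. WT replicate 1 was highest and cKO replicate 2 the highest of its group, and the genotypes did not overlap. Bulk tissue cannot tell fewer oligodendrocytes from less RNA per oligodendrocyte. The number of called members rested on single libraries: it was 9 without WT replicate 2, 1 without WT replicate 3, 0 without cKO replicate 1, 2 without cKO replicate 2 and 0 without cKO replicate 3. This list was known from earlier results of these data to move, so its direction is not independent evidence.

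Structural genes of the myelin sheath were called lower. Mal, a raft proteolipid of compact myelin, stood at 501, 396 and 436 CPM in WT and 208, 232 and 190.1 CPM in cKO, the smallest adjusted p of the list (0.00823, log2 fold change −1.08). Mobp stood at 603, 443 and 465 CPM in WT and 259.9, 312 and 252 CPM in cKO (log2 fold change −0.88, adjusted p = 0.0431, SE 0.138). The tight junction gene Cldn11 had a log2 fold change of −0.90, the tetraspanin gene Tspan2 of −1.03, the cytoskeletal gene Ermn of −0.98 and the receptor gene Gpr37 of −0.83, and all passed in both fits. Mog, at the outer surface of the sheath, and the connexin gene Gjc3 passed only without WT replicate 1, with adjusted p of 0.0444 and 0.00869. Mbp was the most abundant member, at 4052, 3523 and 3973 CPM in WT and 2421, 2923 and 2325 CPM in cKO, and did not pass in either fit (adjusted p = 0.103 and 0.0504).

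Enzymes that make myelin lipids fell as well. Fa2h, which hydroxylates the fatty acids of galactolipids, stood at 67.4, 48.8 and 56.7 CPM in WT and 29.4, 34.2 and 32.9 CPM in cKO (log2 fold change −0.84, adjusted p = 0.0431, SE 0.133). Ugt8a, which adds their galactose, stood at 134, 87.1 and 96.2 CPM in WT and 57.9, 63.3 and 57.9 CPM in cKO (log2 fold change −0.82, adjusted p = 0.0800, SE 0.153). Without WT replicate 1 its log2 fold change was −0.61 (adjusted p = 0.00419, SE 0.0775). Lass2, an earlier symbol of Cers2, the ceramide synthase for very long chains, had a log2 fold change of −0.49 (adjusted p = 0.0699, SE 0.0871) with all libraries and −0.44 (adjusted p = 0.0162, SE 0.0719) without WT replicate 1. These were the called members among 26 genes of fatty acid and sphingolipid synthesis, 1 with all libraries and 3 without WT replicate 1, and 2 of them are also in the myelin list. Of 24 cholesterol synthesis genes none was called in either fit, with medians of 0.07 and 0.02.

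Some genes outside the list, picked from those called lower because oligodendrocytes are known to express them, are given as values only. Erbb3, a neuregulin receptor, stood at 22.2, 13.6 and 16.5 CPM in WT and 7.49, 8.56 and 7.77 CPM in cKO (log2 fold change −0.92, adjusted p = 0.0133 without WT replicate 1). Prr18 had a log2 fold change of −0.92 and the small heat shock gene Cryab of −0.70, both called in both fits. Ndrg1, Plxnb3 and Dock5 were called without WT replicate 1 only, with log2 fold changes of −0.48, −0.62 and −0.95. The precursor stage moved less. None of 13 oligodendrocyte precursor genes was called in either fit, and 4 of them were lower without overlap (30.8%, against 8.2% of all genes). The median log2 fold change was −0.19 with all libraries and −0.20 without WT replicate 1. Sox10, which is expressed through the whole lineage, stood at 73.2, 46.7 and 59.2 CPM in WT and 26.6, 38.2 and 34.2 CPM in cKO (adjusted p = 0.143), and Enpp6, of newly formed oligodendrocytes, at 11.7, 10.7 and 9.34 CPM and 6.68, 6.37 and 6.83 CPM (adjusted p = 0.164).

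Of 31 cell cycle genes tested without WT replicate 1, 3 were called, all lower, where 0.856% of all genes were called, and 22 had negative log2 fold changes. Mki67, the marker of cycling cells, stood at 4.89, 6.82 and 8.54 CPM in WT and 3.27, 3.11 and 3.45 CPM in cKO. Top2a, the DNA topoisomerase of dividing cells, stood at 5.95, 8.30 and 11.1 CPM in WT and 4.22, 3.11 and 5.26 CPM in cKO. Ccna2, cyclin A2, stood at 5.46, 6.00 and 7.11 CPM in WT and 3.41, 2.96 and 2.98 CPM in cKO. All are low, and in all the genotypes did not overlap. Their log2 fold changes without WT replicate 1 were −1.22 (adjusted p = 0.0138, SE 0.192), −1.20 (adjusted p = 0.0386, SE 0.224) and −1.06 (adjusted p = 0.0344, SE 0.196), while with all libraries the adjusted p were 0.166, 0.329 and 0.0970. None of 29 cell cycle genes was called with all libraries or without replicate 1 of both genotypes. The median was −0.17 with all libraries and −0.25 without WT replicate 1. The cytokinesis genes Racgap1 and Anln moved apart. Racgap1, of the central spindle, stood at 11.6, 14.9 and 14.5 CPM in WT and 25.7, 23.5 and 24.01 CPM in cKO and rose by 0.84 on the log2 scale. Anln, which oligodendrocytes also express, stood at 160.3, 109 and 133 CPM in WT and 63.9, 65.8 and 67.1 CPM in cKO and fell by 1.03. Centrosome and microtubule genes also went both ways: Cep250, the linker of centrioles, fell by 0.84 and the delta-tubulin gene Tubd1 by 1.43, while Cdk5rap2, which recruits gamma-tubulin, rose without WT replicate 1 (log2 fold change 0.70, adjusted p = 0.00419, SE 0.0882). Of 33 tested kinesins 29 had negative log2 fold changes with all libraries (median −0.18), as had 6959 of all 14080 genes. Without WT replicate 1 it was 26 of 34 (median −0.14). Kif13b was the only call, without WT replicate 1 (log2 fold change −0.48, adjusted p = 0.0198, SE 0.0814).

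The other glial and vascular lists held at most 1 called gene each in either fit. Aqp4, the water channel of astrocyte endfeet, stood at 136, 106 and 126 CPM in WT and 173, 201 and 167 CPM in cKO. It rose without WT replicate 1 (log2 fold change 0.65, adjusted p = 0.0165, SE 0.102) and not with all libraries (adjusted p = 0.136). Gfap, the intermediate filament of astrocytes, stood at 75.2, 40.01 and 75.7 CPM in WT and 181, 249.7 and 138 CPM in cKO, without overlap but with a wide spread in both groups. Its log2 fold change was 1.58 (adjusted p = 0.0593, SE 0.271) with all libraries and 1.72 (adjusted p = 0.420, SE 0.441) without WT replicate 1. Serpina3n, a protease inhibitor of reactive astrocytes, had a log2 fold change of 1.06 (adjusted p = 0.0962, SE 0.204). Of the 11 reactive astrocyte genes none was called in either fit and 6 had negative log2 fold changes, with medians of −0.03 with all libraries and 0.09 without WT replicate 1. The summed level of the 15 astrocyte genes was 8983, 7883 and 8363 CPM in WT and 8317, 8887 and 8345 CPM in cKO, and the groups overlapped. None of 17 microglial, 15 endothelial and 10 mural cell genes was called in either fit, with medians of 0.03, −0.18 and 0.05 with all libraries and −0.08, −0.12 and 0.03 without WT replicate 1. The microglial median thus turned direction, and 13 of the 17 genes had negative log2 fold changes without that library. Of 9 tested genes of activated microglia none was called in either fit, and 3 were higher without overlap (33.3%, against 6.85% of all genes) and 0 lower. The median log2 fold change was 0.30 with all libraries and 0.61 without WT replicate 1. Their summed level was 882, 1402 and 1560 CPM in WT and 1583, 1603 and 1441 CPM in cKO, and the groups overlapped. Clec7a and Itgax were low. Clec7a stood at 0.733, 0.222 and 0.479 CPM in WT and 1.23, 1.36 and 1.02 CPM in cKO and Itgax at 0.163, 0.296 and 0.319 CPM and 0.818, 1.06 and 1.10 CPM, higher in each cKO library than in each WT library. Neither passed in either fit (adjusted p of 0.465 and 0.169 with all libraries).

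Genes of the brain's borders varied widely between libraries of the same genotype. The 11 meningeal and fibroblast genes summed to 203, 57.3 and 62.2 CPM in WT and 152, 91.9 and 114 CPM in cKO. WT replicate 1 was the highest of all, and the median log2 fold change turned from −0.40 with it to 0.60 without it. Choroid plexus genes summed to 59.6, 39.3 and 49.6 CPM in WT and 201, 51.98 and 188 CPM in cKO, with Ttr, the transthyretin gene, at 16.7, 0.667 and 9.66 CPM and 137, 16.1 and 131 CPM. Ependymal genes summed to 40.1, 84.8 and 75.04 CPM in WT and 93.2, 75.8 and 80.98 CPM in cKO, with WT replicate 1 lowest. Igf2, a growth factor of the meninges and choroid plexus, was called without WT replicate 1 (log2 fold change 1.31, adjusted p = 0.00337, SE 0.134). It stood at 85.6, 28.8 and 30.5 CPM in WT and 85.2, 61.5 and 72.8 CPM in cKO. WT replicate 1 was the highest library, so the genotypes overlapped with all libraries (log2 fold change 0.60, adjusted p = 0.767, SE 0.371). Igfbp2, which binds insulin-like growth factors, rose by 0.99 and Igfbp4 fell by 0.35 on the log2 scale without WT replicate 1 (adjusted p of 0.0201 and 0.0481). They were the 3 calls among 13 genes of the IGF system, and Igf2 was the only one called without replicate 1 of both genotypes (adjusted p = 0.00321). The exons of Igf2 share 62.8% of their length with the predicted gene Gm49394, which leaves its count uncertain. The part of border tissue in the values of Igf2 was not tested.

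No neuronal marker was called in either fit. This held for the 26 genes shared by projection neurons (median −0.04), for 7 genes of the direct pathway (0.13), 6 of the indirect pathway (−0.08) and 18 of interneurons (0.05). Without WT replicate 1 these medians were −0.01, 0.07, −0.16 and 0.02. With all libraries 2 of the 6 indirect-pathway genes were lower without overlap (33.3%, against 8.2% of all genes). Drd2, the dopamine receptor of the indirect pathway, stood at 240.4, 234 and 217 CPM in WT and 174, 208 and 215 CPM in cKO. The groups did not overlap, but they came close, and the log2 fold change of −0.21 (adjusted p = 0.725, SE 0.102) did not pass. Adcy5, the striatal adenylyl cyclase mutated in a dyskinesia, stood at 1874, 1720 and 1973 CPM in WT and 1489, 1705 and 1698 CPM in cKO (log2 fold change −0.19, adjusted p = 0.749). Sst, the somatostatin gene of an interneuron class, stood at 83.6, 144 and 140.2 CPM in WT and 198, 176 and 176 CPM in cKO, with log2 fold changes of 0.58 (adjusted p = 0.461, SE 0.184) and, without WT replicate 1, 0.37 (adjusted p = 0.0522, SE 0.0744). The adjusted p of a gene at these levels does not show that its level was the same in both genotypes.

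Receptor, channel and synapse lists held few called genes, and some of their medians turned direction with WT replicate 1. The median exon length of the glutamate receptor genes was 6721 bases. None of 27 glutamate receptor, 16 GABA receptor, 42 amine, acetylcholine and opioid receptor, 11 sodium channel and 24 calcium channel genes was called in either fit. Nor was any of 30 genes of synaptic vesicle release or 23 of postsynaptic scaffolds. Of the calcium channel genes 21 had negative log2 fold changes with all libraries (median −0.12) and 19 without WT replicate 1 (median −0.02). Of the scaffold genes it was 20 (median −0.10) and 14 (median −0.04). With all libraries 6959 of all 14080 genes were negative. Lower without overlap were 4 scaffold genes (17.4%, against 8.2% of all genes), and 0 were higher. The median of the glutamate receptors went from −0.08 to 0.08 without WT replicate 1, and that of the potassium channels from −0.04 to 0.08. Kcna6, a voltage-gated potassium channel gene, was the exception among 80 channels tested without WT replicate 1, with 91.8, 71.9 and 75.9 CPM in WT and 55.9, 57.7 and 52.7 CPM in cKO (log2 fold change −0.41, adjusted p = 0.0315, SE 0.0746). Pde8a, a cAMP phosphodiesterase, fell in that fit by 0.73 (adjusted p = 0.0314), as the 1 call of 39 cyclic nucleotide genes. Among 270 solute carriers 2 fell there: Slc12a2, the sodium-potassium-chloride cotransporter, by 0.42 and Slc5a6, the carrier of biotin and pantothenate, by 0.66 on the log2 scale. Of 24 genes of monogenic dystonia, Thap1 was the only call. Prrt2, of paroxysmal dyskinesia, had a log2 fold change of 0.37 (adjusted p = 0.367, SE 0.107).

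**Figure D5:**
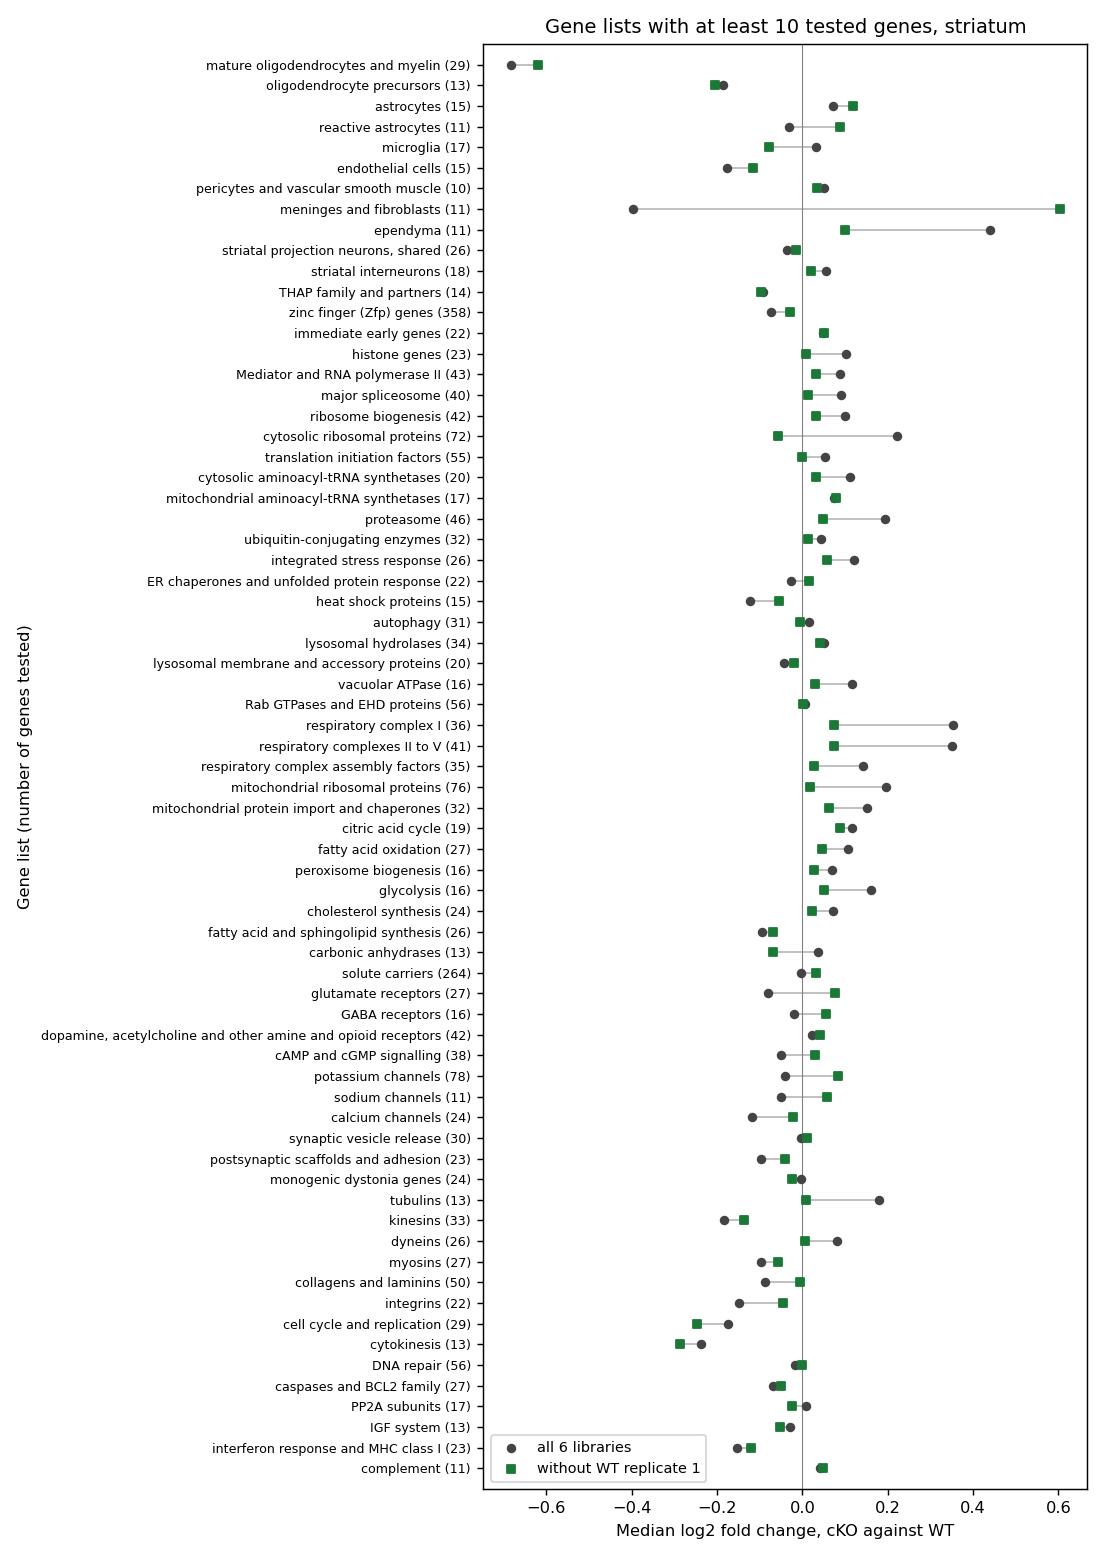
Median log2 fold change of cKO against WT (x axis) in each gene list with at least 10 tested genes (y axis, number tested with all 6 libraries in brackets), with all 6 libraries (black circles) and without WT replicate 1 (green squares). The myelin list lies furthest below 0 in both fits (−0.68 and −0.62), while meningeal, respiratory and ribosomal protein lists are moved by WT replicate 1.

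In 6 of the genes called without WT replicate 1 the genotypes overlapped with all libraries. Chgb, a granin of secretory vesicles, stood at 211, 281 and 359 CPM in WT and 197, 215 and 211 CPM in cKO. Abi3bp, an extracellular matrix protein, stood at 35.03, 53.1 and 53.6 CPM in WT and 37.3, 35.2 and 35.4 CPM in cKO. Tppp3, a tubulin-binding protein, stood at 35.5, 49.1 and 53.6 CPM in WT and 36.9, 35.1 and 36.2 CPM in cKO. For Chgb and Tppp3 WT replicate 1 lay within the range of the cKO libraries, and for Abi3bp just below it. WT replicates 2 and 3 lay above every cKO library in each of these genes. Without WT replicate 1 their log2 fold changes were −0.62 (adjusted p = 0.0165, SE 0.0977), −0.57 (adjusted p = 0.00649, SE 0.0767) and −0.51 (adjusted p = 0.0138, SE 0.0801). Of the 69 genes called without WT replicate 1 only, 16 were still called without replicate 1 of both genotypes and 32 with the length trend removed from all 6 libraries. Their adjusted p with all libraries ran from 0.0504 to 0.812. Of the 123 genes called in either fit 51 belonged to a list and 72 to none. Among the latter were Gatm, an enzyme of creatine synthesis, at 247, 184 and 216 CPM in WT and 116, 133 and 123 CPM in cKO, and Csad, an enzyme of taurine synthesis, at 16.8, 19.1 and 18.3 CPM and 25.8, 26.5 and 27.2 CPM. Gatm was called lower in both fits, and Csad was called higher without WT replicate 1.

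Several genes of stress, survival and adhesion lists were called alone. Cryab, a small heat shock protein, was the 1 call of 15 heat shock genes, at 87.7, 86.4 and 99.8 CPM in WT and 60.6, 57.8 and 49.6 CPM in cKO. Itgb4, an integrin subunit, was the 1 call of 22 integrins, at 29.6, 25.5 and 26.6 CPM in WT and 15.3, 17.5 and 16.4 CPM in cKO (log2 fold change −0.73, adjusted p = 0.0431, SE 0.115). Cradd was the 1 call of 27 genes of the caspase and BCL2 families, in which 8 genes were lower without overlap (29.6%, against 8.2% of all genes) and 1 higher (3.70%, against 6.85%). Shld1 was the 1 call of 56 DNA repair genes. None of 26 genes of the integrated stress response, 22 of endoplasmic reticulum chaperones, 16 of glycolysis, 19 of the citric acid cycle, 23 of the interferon response and MHC class I, and 11 of complement was called in either fit. Higher without overlap were 6 genes of the citric acid cycle (31.6%) and 7 of the integrated stress response (26.9%), against 6.85% of all genes, and 0 and 1 were lower. The medians of these 2 lists were 0.12 and 0.12 with all libraries and 0.09 and 0.06 without WT replicate 1. They did not stand alone in this. Complexes II to V had 31.7% higher without overlap, mitochondrial import and chaperones 28.1% and cytosolic aminoacyl-tRNA synthetases 25%, with 0, 1 and 0 genes lower.

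The striatal calls were set beside the cerebellum, whose 8 libraries share none with the striatal comparison. There 1121 of 14775 genes (7.59%) were called. All 9 genes called higher in the striatum were called higher there. Of the 45 called lower 30 were called, 29 of them lower. The exception was Tomm40l, which had a log2 fold change of 0.34 in cerebellum (adjusted p = 0.000122). Among the 12 myelin genes called without WT replicate 1, Mal had −0.37, Fa2h −0.39, Ermn −0.28 and Tspan2 −0.08 in cerebellum, and the median of the list was −0.18. Of its 29 genes 12 were called lower in cerebellum and none higher. The difference itself was tested as an interaction, the striatal minus the cerebellar log2 fold change in 1 model of all 14 libraries. It called 60 of 15401 genes (0.39%), 23 with a positive and 37 with a negative difference. Of the 123 striatal genes 29 were called in it, 27 of them more negative in striatum. The 123 were chosen by their striatal calls, mostly lower, from the same striatal libraries, so that split is partly built in. The number of 29 fell to between 10 and 14 when a cerebellar library was left out. Mal, with a difference of −0.70 (adjusted p = 0.0229, SE 0.122), was among the 29. Zfp882 fell further in cerebellum, with log2 fold changes of −1.15 in striatum and −2.90 in cerebellum, and Zfp658 further in striatum, with −1.74 against −0.12. Thap1 itself had log2 fold changes of −1.36 in striatum and −0.34 in cerebellum. Its difference of −1.01 did not pass the interaction test (adjusted p = 0.0884, SE 0.237).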

How the data were processed

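RNA sequencing was measured in 14 samples, of which the 6 striatal ones are described. The authors deposited raw read counts per gene symbol, 23337 per sample. The submitters' processing notes name the mm10 build, DESeq2, HTSeq 0.6.1p1, STAR and cutadapt 1.13. The strand setting and annotation were not given in the sources used. Groups come from the sample titles. Counts were normalised with TMM in edgeR 4.0.16 (R 4.3.3) and filtered with filterByExpr (minimum count 10, minimum total 15). CPM use the factors of the 6 libraries. Genotypes were compared with edgeR's robust quasi-likelihood test (adjusted p under 0.05, Benjamini-Hochberg). SE is the log2 fold change over the square root of F. The length trend was removed as a lowess offset (span 0.3) per library on exon length from GENCODE vM21 on GRCm38 (mm10), where 89.8% of symbols matched directly and 8.39% through a synonym.

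The members and the 77 gene lists were chosen with earlier results of these data known. Named genes were Thap1, up to 15 called genes per direction by p (mean CPM at least 1, no overlap, predicted symbols skipped), up to 10 per direction called without WT replicate 1 only, and up to 4 members per list. Ndrg1, Plxnb3, Dock5, Erbb3, Prr18, Mbp, Sox10, Chgb, Abi3bp, Tppp3, Gatm, Csad, Uvrag, Lrsam1, Tmed10, Cyb5d2 and other genes outside the rule were picked after their values were seen. Of the 123 called genes 61 have exons that overlap another gene, and counts of such genes are uncertain. Library totals limit precision for low genes. Scripts were tested on simulated counts. Some items are not reported here. Other settings were DESeq2 1.42.0 and its size factors, limma-voom 3.58.1, no filter, a sex covariate, a replicate block, an adjusted p of 0.1, the length trend removed, and each library left out.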

Additional observations from a re-analysis of the deposited data

Results flagged for a closer look

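Of the 123 genes called in either striatal fit, 29 were picked out because the striatal minus the cerebellar log2 fold change differed from 0 in the model of all 14 libraries (edgeR's quasi-likelihood test, adjusted p under 0.05 over 15401 genes). The value in brackets is that difference. Most of the 123 were called as lower in striatum, and the model reuses those libraries, so a lean to negative differences is partly built in. Tomm40l (−1.76) was lower in striatum and higher in cerebellum. Zfp658 (−1.61) fell in striatum, with a log2 fold change of −0.12 in cerebellum, and Zfp882 (1.76) fell further in cerebellum. Ppp2r3c (0.55) rose further in striatum. Of the myelin and myelin lipid genes, Tspan2 (−0.94), Mal (−0.70), Gpr37 (−0.63), Ugt8a (−0.72) and Lass2 (−0.48) were more negative in striatum. The rest were Prr18 (−0.83), Anln (−0.68), Bcas1 (−0.70), Cryab (−0.61), Gatm (−0.67), Zeb2 (−0.64), 4930506M07Rik (−0.87), Klhl4 (−0.84), Clic4 (−0.75), Slain1 (−0.58), Chrdl1 (−0.94), Micall1 (−0.76), Erbb2ip (−0.61), D16Ertd472e (−0.84), Sox2ot (−0.60), Phldb1 (−0.66), Plekhb1 (−0.42), Adamtsl1 (−1.39), Pkp4 (−0.50) and Abca8a (−1.12). Without striatal WT replicate 1 27 of the 29 were still called, all but Bcas1 (adjusted p = 0.0629) and Adamtsl1 (adjusted p = 0.0538). With 1 cerebellar library left out only 10 to 14 were. Tissue and the number of libraries differ together here.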

How the results depend on the processing

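With all 6 libraries the number of called genes was 54, and it was 153 with DESeq2, 186 with limma-voom and its quality weights (both including all 54), 86 with the length trend removed, 87 at an adjusted p of 0.1, and 3 to 122 with a library left out. Without WT replicate 1 the count of 122 became 185 with no filter on low counts and 60 with a sex covariate, and 41 to 196 with another library left out. The cerebellar count of 1121 became 1773 at an adjusted p of 0.1 and 739 to 1165 with a library left out. The interaction count of 60 became 116 at an adjusted p of 0.1, 13 with the replicate block, and 17 to 193 with a library left out. The deviations of same-numbered striatal libraries had correlations of 0.0385, 0.0566 and 0.0177, against −0.0505 to 0.0177 for the other pairs of WT and cKO. Deviations from means of 3 libraries cannot settle whether the numbers pair them. With the replicate block in the striatal fit 15 genes were called, 14 of them among the 54. No direction of a called gene reversed under any setting run. The causes of these shifts in count were not tested. Medians of 31 lists changed sign under some setting, while that of the myelin list stayed between −0.86 and −0.58. With 3 libraries per group, and with 2 or 1 after leaving some out, genes of a few CPM and changes near the median SE are beyond what these counts resolve.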
